A study of Mus musculus with 9 samples.

Results

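Neutrophils carrying transcripts of the stefin A genes made up 243 of the 16751 cells profiled from the knee joints of 9 mice. They were picked by raw counts alone: the summed count of Stfa2, Stfa3, Stfa2l1, BC100530, BC117090 and Gm5483 had to reach 3, S100a8 and S100a9 had to hold at least 12% of the cell's counts, the secondary granule genes Camp and Ngp less than 3%, and the primary granule genes Mpo, Elane, Prtn3 and Ctsg together fewer than 5 counts. The other mature neutrophils met the same cuts with a stefin A sum of 0 to 2 and numbered 1155, and the immature neutrophils, with Camp and Ngp at 3% or more, numbered 4009. The sick mice (n = 5, numbers 1, 3, 4, 5 and 6) had antigen-induced arthritis: they had been sensitised to methylated bovine serum albumin (mBSA), which was then injected into the left knee. The healthy mice (n = 4, numbers 1 to 4) had phosphate-buffered saline injected into the left knee, and the labels do not state whether they had been sensitised. All were female 129/Sve mice of 8 weeks, the whole left joint was taken 1 week after the injection, and each mouse gave 1 Seq-Well library, in which single cells are caught with barcoded beads in small wells and transcripts are read at their 3' ends.

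Stefins A are small proteins that sit inside cells and block papain-like cysteine proteases, among them the lysosomal cathepsins. In mice the family has expanded into a cluster of closely related genes, and its transcripts are known from neutrophils. Neutrophils are made in the bone marrow in steps, with primary granule proteins first, then secondary granule proteins such as Camp, Ngp and lactoferrin (Ltf), and lastly tertiary granule enzymes and the receptors, such as Cxcr2, that accompany release into the blood.

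The 6 genes lay on chromosome 16, at chr16:36156811-36455392 of GRCm38, a stretch of 298.6 kb, and each had 3 exons in the GENCODE annotation. Their coding sequences were 75 to 96.5% identical over the 15 pairs, and the last 100 bases of their transcripts, the end that Seq-Well reads, were 45.3 to 77.4% identical. The part of the coding sequence shown next is 90 bases long, aligns without a gap in all 6 genes, and starts at coding base 28 in Stfa2, Stfa3 and Stfa2l1, at base 10 in BC100530 and Gm5483 and at base 7 in BC117090. Capitals mark the 26 positions at which the 6 genes are not all alike, and the other 64 are the same in every gene. It is shown so that the copies behind the sum can be compared letter by letter.
Stfa2: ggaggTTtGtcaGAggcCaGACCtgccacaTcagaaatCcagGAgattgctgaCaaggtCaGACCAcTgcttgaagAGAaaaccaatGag
Stfa3: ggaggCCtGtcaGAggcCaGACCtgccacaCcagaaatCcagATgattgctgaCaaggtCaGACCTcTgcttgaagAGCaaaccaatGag
Stfa2l1: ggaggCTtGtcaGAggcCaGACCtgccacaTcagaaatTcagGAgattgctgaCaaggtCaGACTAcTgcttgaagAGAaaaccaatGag
BC100530: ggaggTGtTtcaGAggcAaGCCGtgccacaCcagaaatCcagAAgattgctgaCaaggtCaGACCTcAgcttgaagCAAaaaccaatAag
BC117090: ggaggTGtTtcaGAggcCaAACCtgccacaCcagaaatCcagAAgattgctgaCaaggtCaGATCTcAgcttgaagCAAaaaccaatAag
Gm5483: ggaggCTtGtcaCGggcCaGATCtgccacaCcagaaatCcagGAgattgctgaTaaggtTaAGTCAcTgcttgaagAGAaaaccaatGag

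The counts do not record how reads that match several copies were treated, so values of single copies are uncertain and their sum is the safer measure. Promoter sequences were found for 5 of the 6 genes (RefSeq, GRCm38.p6; BC117090 had none), and over the 250 bases before the start they were 65.2 to 89.4% identical between pairs. In all 5 promoters 3 stretches of 10 or more bases occurred, which do not overlap and are in capitals in the examples: CACACTCATT, 77 to 103 bases before the start, AGAGGAGGAG, 31 to 55 bases before it, and ACCTTTAAAACC, 12 to 36 bases before it. Among all 32851 RefSeq promoters, searched over the same 250 bases on both strands, ACCTTTAAAACC was present in 11 (0.0335%), CACACTCATT in 27 (0.0822%) and AGAGGAGGAG in 268 (0.816%). The matches describe letters shared by neighbouring copies and say nothing about a factor. The 110 bases before the start are shown for Stfa2l1 (chr16:36156701-36156810, plus strand), Gm5483 (chr16:36184102-36184211, plus strand) and Stfa3 (chr16:36455393-36455502, minus strand).
Stfa2l1: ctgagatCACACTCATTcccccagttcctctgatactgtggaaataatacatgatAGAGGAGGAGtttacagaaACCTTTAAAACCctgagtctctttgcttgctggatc
Gm5483: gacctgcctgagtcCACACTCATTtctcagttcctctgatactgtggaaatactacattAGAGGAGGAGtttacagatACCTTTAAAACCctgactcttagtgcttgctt
Stfa3: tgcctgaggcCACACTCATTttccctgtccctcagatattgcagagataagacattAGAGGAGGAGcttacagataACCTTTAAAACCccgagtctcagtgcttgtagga

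The libraries held 1397 to 3850 cells and 1589079 to 4675909 counts in sick mice, and 877 to 1400 cells and 897477 to 1514252 counts in healthy mice. Sick libraries had 406 to 1505 neutrophils, whereas healthy 1 had 362 and healthy 2, 3 and 4 had 99, 79 and 71. Those 3 healthy libraries stand apart, and together they gave 4 of the 32 stefin A neutrophils of healthy mice. The results therefore turn on the sick mice, with healthy 1 beside them. No stefin A neutrophil had a cell barcode that occurred in another library, although 8 barcodes did among all cells.

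The neutrophil label held for the marker genes that the rule did not use. Retnlg, a resistin-like protein of neutrophils, was counted in 98.8% of the stefin A neutrophils, against 61.4% of a comparison set of B-lineage cells, which have more counts per cell (median 1500, against 665). Cxcr2, the receptor for neutrophil-attracting chemokines, was counted in 52.3% of them and 3.45% of B-lineage cells, and Mmp8, a neutrophil collagenase, in 71.6% and 9.66%. Il1b, the inflammatory cytokine interleukin 1β, was counted in 30.9% and 8.28%, Csf3r, the receptor for granulocyte colony-stimulating factor, in 8.64% and 0.690%, and Acod1, the enzyme that makes itaconate in activated myeloid cells, in 16.5% and 0.690%. Of markers of other cells, 8 of 12 T and NK genes were at 0 in the 211 stefin A neutrophils of sick mice. So were 5 of 8 mast cell and basophil genes and 2 of 16 monocyte and macrophage genes (Adgre1 and Mrc1). The 1053 other mature neutrophils of sick mice, a larger pool, had 3, 1 and 0 of these genes at 0. T and NK markers together stood at 0 to 122 CPM in the stefin A neutrophils, against 49.3 to 158 CPM. Summed over its list, the B-lineage markers stood at 656 to 1552 CPM in the stefin A neutrophils of the sick mice, against 755 to 2326 CPM in the other mature neutrophils, with Igkc giving 109 of 180 counts. The 16 monocyte and macrophage markers stood at 213 to 1468 CPM, against 361 to 1360 CPM. All 211 stefin A neutrophils of sick mice had 3 or more counts of the 14 erythroid markers together. The haemoglobin gene Hbb-bs gave 16385 of the 22798 counts.

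The stefin A sum chose the cells, so its size is a description. Its median was 5 counts per cell and its highest value 38, with 63 cells at 3 counts, 79 at 4 to 5, 67 at 6 to 10 and 34 above 10. Just outside the cut, 115 other mature neutrophils had a sum of 2, 202 a sum of 1, and 838 had none. Stefin A transcripts made up 0.823% of all counts in the chosen cells. In 59 of these cells all stefin A counts came from 1 gene, 98 cells had 2 of the genes, 58 had 3, 21 had 4, 7 had 5 and none had all 6.

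BC100530 was the copy with the most counts, with 767 of the 1586 stefin A counts (48.4%) and at least 1 count in 72.4% of the stefin A neutrophils. Gm5483 gave 293 counts (18.5%), BC117090 gave 207 (13.1%), Stfa2l1 gave 190 (12%), Stfa2 gave 93 (5.86%) and Stfa3 gave 36 (2.27%). Each of these is a share of counts, and none is scaled to transcript length. BC100530 stood at 1942, 4601, 4145, 3876 and 3105 CPM (counts scaled to a common library total) in the stefin A neutrophils of sick 1, 3, 4, 5 and 6, and at 5420 in those of healthy 1. Gm5483 stood at 2036, 1366, 518, 1482 and 1339 CPM in the same sick mice and at 2710 in healthy 1. Sick 1 had the lowest BC100530 and the highest Gm5483 level of the 5 sick mice, and this difference between animals was not tested. Other copies of the cluster that the rule left out had few counts here, with 6 counts of Stfa1, 8 of Gm5416, 14 of 2010005H15Rik, 4 of Csta1 and 15 of Gm5689.

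Stefin A transcripts were not confined to the chosen cells, which held 23.7% of the 6700 stefin A counts in the table. Immature neutrophils held 31.2% and the other mature neutrophils 6.45%. In sick mice 6.17% of immature neutrophils had 3 or more stefin A counts, at a median of 824 counts per cell. Cells that should lack these genes give the background: in sick mice 1.61% of B-lineage cells (median 1501 counts) and 3.39% of erythroid cells (median 1342 counts) reached 3 counts, and B-lineage cells averaged 205 CPM. The stefin A neutrophils of sick 1, 3, 5 and 6 stood at 6394, 8685, 8551 and 6635 CPM, and those of healthy 1 at 11248.

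In sick mice stefin A levels were highest in the neutrophils with least Camp and Ngp. Over all neutrophils of the sick mice, whatever their stefin A sum, the level was 3334 CPM where Camp and Ngp held less than 0.5% of counts, 2356 at 0.5 to 1.5%, 1242 at 1.5 to 3%, 605 at 3 to 6%, 422 at 6 to 10% and 209 at 10 to 15%, a value near the level in B-lineage cells. Retnlg stood at 16408, 16620, 8773, 4348, 2579 and 1609 CPM over the same steps, and Il1b at 1531, 791, 388, 224, 120 and 41.0 CPM. Ltf, a secondary granule protein that the rule did not use, ran the other way, at 461, 1173, 3531, 7295, 10421 and 12068 CPM. The pattern in each sick mouse with cells in all steps was alike in direction at its ends: from the first to the last step stefin A stood at 1884 and 46.8 CPM in sick 1, 4176 and 161 in sick 3, 4342 and 285 in sick 5 and 2619 and 263 in sick 6. In the pooled healthy mice the order was not strict: stefin A stood at 3981, 5216, 1332, 527, 374 and 479 CPM over the 6 steps, the first on 23 cells and the last on 25. In sick mice median counts per cell moved along this axis too, at 513, 598, 717, 822, 834.5 and 783 over the 6 steps, and their part in the pattern was not tested.

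**Figure D1:**
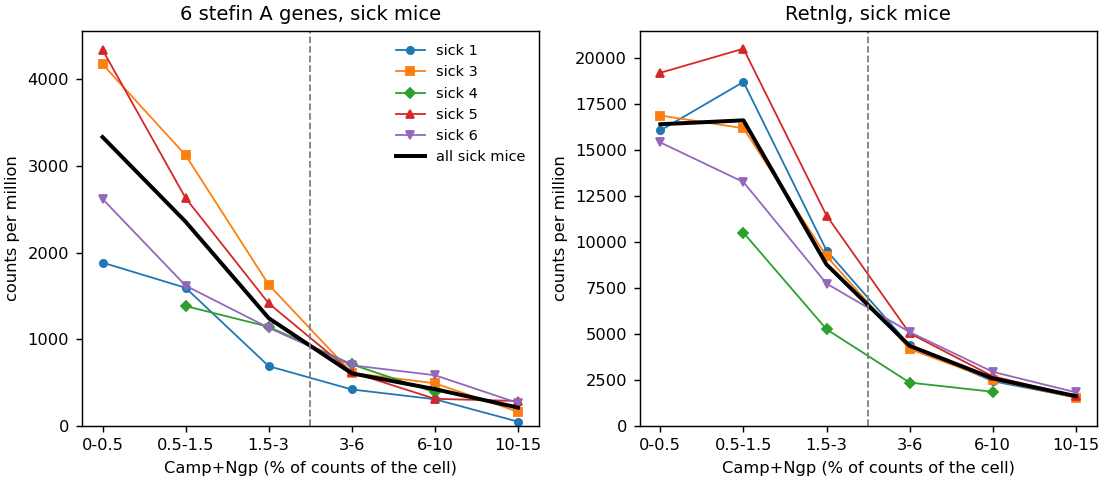
Level (CPM, linear axis) of the 6 stefin A genes together (left) and of Retnlg (right) in neutrophils of sick mice, by the share of counts in Camp and Ngp, with a thin line for each mouse (steps with at least 20 cells), a thick line for all sick mice and a dashed line at the 3% cut. Stefin A is highest at the low end (3334 CPM over all sick mice) and lowest at the high end (209 CPM), and Retnlg stands at 16408 and 1609 CPM at the same ends.

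The share of these cells overlapped between sick and healthy mice. They made up 11.4, 21.6, 11.3, 20.8 and 12.8% of the mature neutrophils of sick 1, 3, 4, 5 and 6, against 32.2% in healthy 1 (28 of 87 cells), 10% in healthy 2 (2 of 20), 11.8% in healthy 3 (2 of 17) and 0% in healthy 4 (0 of 10, exact binomial interval 0 to 30.8%). Healthy 1 lay above every sick mouse, healthy 3 within their range, and healthy 2 and 4 below it. Over mice with at least 20 mature neutrophils, the mean was 15.6 ± 5.15% (SD, n = 5) in sick and 21.1 ± 15.7% (n = 2) in healthy mice, and the exact two-sided permutation p was 0.619, with 0.0476 the smallest this design allows. As a share of all neutrophils they averaged 4.08 ± 1.24% (SD, n = 5) in sick and 3.07 ± 3.30% (n = 4) in healthy mice (exact permutation p = 0.532), and as a share of all cells 1.60 ± 0.594% and 0.759 ± 1.27% (p = 0.214). Adjusted over the 3 shares, each p was 0.619.

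These comparisons turned on healthy 1. Without it the share of all cells averaged 1.60% in sick and 0.124% in healthy mice (exact permutation p = 0.0179, the smallest possible) and the share of neutrophils 4.08 and 1.52% (p = 0.0357), each with an adjusted p of 0.0536. The share of mature neutrophils was then 15.6% in sick mice against 10% in healthy 2 alone. After every cell was thinned to 600 counts, which left out 2928 cells of sick and 792 of healthy mice, the rule gave 9.16, 16.1, 11.5, 19.4 and 9.0% of the mature neutrophils in sick 1, 3, 4, 5 and 6 and 28.3% in healthy 1.

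**Figure D2:**
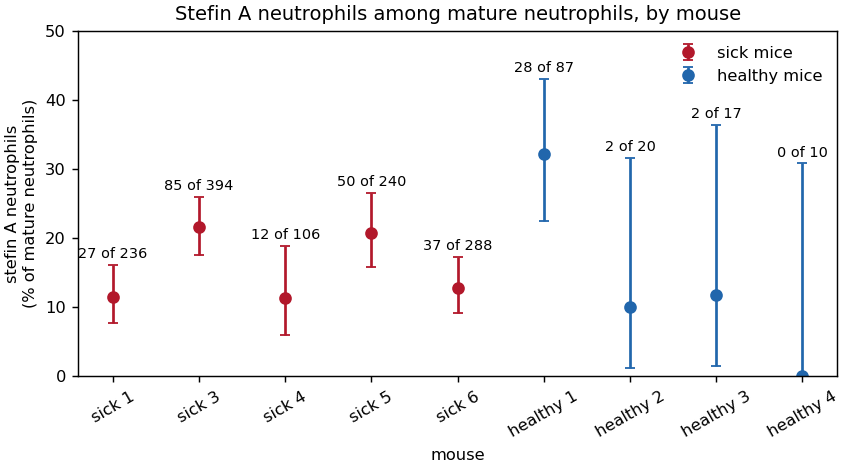
Stefin A neutrophils as a percentage of mature neutrophils, 1 point for each mouse with its exact 95% binomial interval, sick mice left and healthy mice right. Sick mice lie between 11.3 and 21.6%, healthy 1 lies above them at 32.2%, and the intervals of healthy 2, 3 and 4 are wide because they rest on 20, 17 and 10 mature neutrophils.

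The first comparison asked what else set the stefin A neutrophils apart from the other mature neutrophils of the same mice. Counts were summed by mouse and cell group with the 14 genes of the rule left out, and edgeR's quasi-likelihood test was fitted with the mouse as a block over sick 1, 3, 5 and 6. Sick 4 had 12 stefin A neutrophils and stayed out of the fit, but its values are given and enter the means. Few other genes passed: of 1000 genes tested, 2 were higher (0.2%) and 7 lower (0.7%), 0.9% in all, at an adjusted p of 0.05, while 65 were higher and 62 lower at an unadjusted p of 0.05. CPM values in this comparison and the next are relative to the counts outside the genes of the rule.

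The gene 2810474O19Rik stood at 1909, 1016, 1551, 1670 and 905 CPM in the stefin A neutrophils of sick 1, 3, 4, 5 and 6, against 540, 577, 702, 986 and 417 CPM in the other mature neutrophils. It was higher in all 5 mice, and the level in stefin A neutrophils of sick 6 lay below that of the other cells of sick 5. Its log2 fold change was 0.92 ± 0.18 (SE; edgeR adjusted p = 0.0127), on 150 counts in 77 of the 199 stefin A neutrophils of the 4 fitted mice. In healthy 1 it stood at 793 CPM, against 514.

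Ankrd22, an ankyrin repeat gene, stood at 318, 192, 0, 456 and 157 CPM in stefin A neutrophils of the same 5 mice, against 60.0, 31.5, 49.0, 164 and 30.7 CPM in the others. It was higher in 4 of the 5 mice, and its log2 fold change was 1.90 ± 0.45 (edgeR adjusted p = 0.037). That call rests on 31 counts in 13 cells of the 4 fitted mice, 11 of them in a single cell. Neither gene kept its call in every fit with a mouse left out: without sick 1 the adjusted p was 0.0644 for 2810474O19Rik and 0.0911 for Ankrd22, and without sick 5 it was 0.0525 and 0.224.

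Of the 7 lower genes, 4 encode haemoglobin chains: Hbb-y (log2 fold change −0.99), Hba-a2 (−0.69), Hbb-bt (−0.68) and Hba-a1 (−0.67), with edgeR adjusted p between 0.0242 and 0.037. Haemoglobin genes held 13.9 ± 5.07% of counts in stefin A neutrophils and 18.2 ± 5.36% in the other mature neutrophils (SD, n = 5), lower in 5 of 5 mice (paired exact permutation p = 0.0625, the smallest possible). The shares were nearly equal in sick 3 (12.70 and 12.94%) and sick 4 (19.03 and 19.08%). The median share per cell was higher in stefin A neutrophils of sick 3 (4.16 against 3.95%) and sick 4 (6.85 against 5.88%), and lower in those of sick 1, 5 and 6. In cells with less than 20% haemoglobin and under 3 counts of other lineages' markers, the fold changes were −0.32, −0.37, −0.05 and −0.17 and did not pass, and no gene passed in either direction. That cut caps the sum of these same haemoglobin genes in both groups. The smaller fold changes are therefore no independent check of the haemoglobin difference. Of the 14 erythroid genes on the list, 10 were tested, 3 fell and all 10 had negative fold changes, with a median log2 fold change of −0.67 against 0.00 over all genes tested.

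The other 3 lower genes were the ribosomal protein genes Rps19 and Rps14 and the condensin gene Smc4. Rps19 stood at 891, 977, 443, 569 and 1180 CPM in stefin A neutrophils of sick 1, 3, 4, 5 and 6, against 1337, 1201, 1323, 1179 and 1590 CPM in the others (log2 fold change −0.67 ± 0.16, edgeR adjusted p = 0.0413). Smc4, which compacts chromosomes for division, stood at 318, 422, 554, 114 and 197 CPM, against 634, 677, 947, 464 and 368 CPM (−1.11 ± 0.28, edgeR adjusted p = 0.045). Both were lower in every sick mouse. Ribosomal protein genes as a whole held 1.44 ± 0.414% of counts in stefin A neutrophils and 1.95 ± 0.167% in the others (SD, n = 5), lower in 5 of 5 mice (paired exact permutation p = 0.0625). Without sick 5, none of the 9 genes passed, and DESeq2 passed none. The fold changes kept their direction: with DESeq2 they were 0.96 for 2810474O19Rik, 2.00 for Ankrd22, −1.17 for Smc4 and −0.70 for Rps19, and without sick 5 they were 1.07 for 2810474O19Rik, 2.31 for Ankrd22 and −0.53 for Rps19.

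The genes of inflammation and maturation named next did not pass. Il1b stood at 2164, 1092, 664.5, 949 and 1062 CPM in stefin A neutrophils, against 1346, 755, 637, 657 and 282 CPM in the others, higher in 5 of 5 mice (log2 fold change 0.69, edgeR adjusted p = 0.0602). Fpr1, a receptor for bacterial formyl peptides, had 0.79 (adjusted p = 0.0587), Retnlg 0.42 (0.117) and Slfn4, an interferon-inducible gene of myeloid cells, 0.45 (0.117). Acod1, given as a marker of these cells, stood at 127, 479, 0, 759 and 275 CPM in stefin A neutrophils, against 120, 304, 81.7, 406 and 111 CPM in the other mature neutrophils, and did not pass (0.67 ± 0.30, edgeR adjusted p = 0.308). On the granule side, Fcnb, a lectin of immature neutrophils, had −1.35 (adjusted p = 0.0914), Chil3 −0.64 (0.114) and Ltf −0.41 (0.117). With no filter on low counts, the fold change of Retnlg turned to −0.02.

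Apart from the erythroid list, no list had a gene that passed. The median log2 fold change was 0.50 over the 3 tested genes of the interleukin 1 and inflammasome list, 0.31 over the 7 chemoattractant receptors, 0.25 over the 13 interferon-stimulated genes, of which 12 were positive, and −0.60 over 4 cell cycle genes. Depth moved slightly with the groups, with a median count per cell of 674.8 ± 25.3 in stefin A neutrophils and 636 ± 46.6 in the others (SD, n = 5), higher in 5 of 5 mice (paired exact permutation p = 0.0625). Against cells matched in depth, with 427 genes tested, 3 genes were higher, neither 2810474O19Rik nor Ankrd22 among them, and 15 were lower, all 7 lower genes among them. 2810474O19Rik then had 0.93 (edgeR adjusted p = 0.0595), and Ankrd22 was not tested.

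Cells grouped by their stefin A sum show the same genes without a test, over the pooled cells of sick mice with sums of 0, 1, 2, 3, 4 to 5, and 6 or more. 2810474O19Rik stood at 597, 602, 699, 1046, 1210 and 1506 CPM, highest in the cells with most stefin A. Retnlg stood at 13878, 13188, 14767, 20230, 20311 and 23089 CPM, with its step between a sum of 2 and 3. Il1b, at 677, 758, 905, 1429, 1134 and 964 CPM, and Ankrd22, at 64.4, 41.2, 63.5, 510, 0 and 221 CPM, were highest at a sum of 3 and did not follow the sum above it. Median counts per cell were 712 at a sum of 6 or more and 616 at 0, and their part in this order was not tested.

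**Figure D3:**
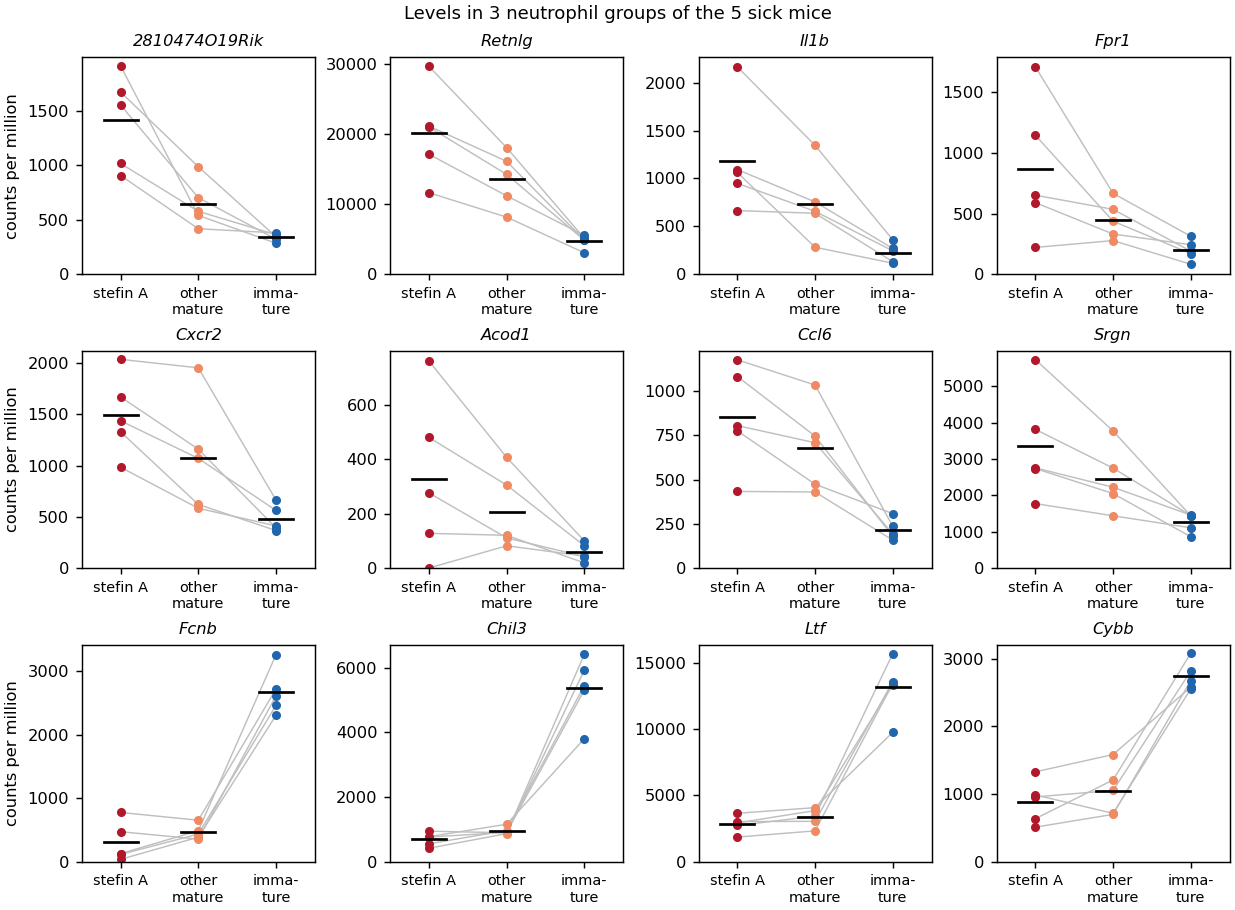
Levels of 12 genes (CPM of the counts outside the genes of the rule) in stefin A, other mature and immature neutrophils; a point is 1 of the 5 sick mice, grey lines join a mouse and bars are means. 2810474O19Rik lies higher in stefin A neutrophils than in the other mature neutrophils of all 5 mice; Retnlg and Il1b lie higher in stefin A than in immature neutrophils, and Fcnb, Chil3, Ltf and Cybb lower.

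Against the immature neutrophils the stefin A neutrophils differed widely. None of the single genes named below for this comparison passed against the other mature neutrophils. The differences are therefore not shown to be particular to the stefin A neutrophils. The Camp and Ngp cut chose these groups, so a difference in granule stage was built in. The genes of the rule were left out, but other genes also changed along the Camp and Ngp share in sick mice. From its lowest to its highest step Ltf stood at 461 and 12068 CPM, Retnlg at 16408 and 1609, and Il1b at 1531 and 41.0. How far the calls below, among them granule and cell cycle genes, followed from the cut itself was not tested. Of 3997 genes tested with the same fit over sick 1, 3, 5 and 6, 149 were higher (3.73%) and 131 lower (3.28%), 7.01% in all; the median log2 fold change over all genes was −0.26. Without sick 3 the counts were 70 higher and 65 lower, without sick 5 they were 78 and 70, and without sick 1 they were 141 and 75.

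Among the cytokine genes, Il1b stood at 2164, 1092, 664.5, 949 and 1062 CPM in stefin A neutrophils of sick 1, 3, 4, 5 and 6, against 360, 270, 132, 245 and 116 CPM in immature neutrophils, and the groups did not overlap (log2 fold change 2.34 ± 0.25, edgeR adjusted p = 1.05e-17). Of 7 tested genes of the interleukin 1 and inflammasome list, 4 rose and none fell, with a median of 1.71. The others were Il1r2, the decoy receptor of interleukin 1 (1.71), Il1rn, its receptor antagonist (1.86), and Nlrp3, the inflammasome sensor (2.15, edgeR adjusted p = 0.00215, on 15 counts in the fitted mice). Both interleukin 1β and proteins that restrain it were among the genes that rose.

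Acod1 stood at 127, 479, 0, 759 and 275 CPM in stefin A neutrophils, against 18.7, 81.8, 43.9, 99.3 and 41.9 CPM in immature neutrophils. It was higher in 4 of 5 mice, with no count in the 12 cells of sick 4 (log2 fold change 2.72 ± 0.41, edgeR adjusted p = 1.02e-08). The inflammatory response list had 5 rises and 1 fall among 22 tested genes: Clec4d and Clec4e, lectin receptors for microbial glycolipids, had 2.28 and 1.31, Trem1, which amplifies inflammatory signals, 1.40, and Cd14, the co-receptor for lipopolysaccharide, 1.18. Lcn2, an iron-sequestering secondary granule protein, fell (−1.26). The list's median was 0.67, beside −0.26 over all genes. Of the 16 monocyte and macrophage markers, 5 were tested, 4 were positive, none passed and the median was 0.74; summed, they stood at 213 to 1468 CPM in stefin A neutrophils and 220 to 624 CPM in immature neutrophils, and their part in the result was not tested. Among chemokines 2 of 6 tested genes rose, Ccl6 (2.08) and Cxcl2 (1.62), and none fell. Against the other mature neutrophils Ccl6 had 0.09 and Cxcl2 −0.07, and neither passed.

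Receptors for chemoattractants moved both ways. Cxcr2 stood at 2037, 1437, 1329, 1670 and 984 CPM in stefin A neutrophils, against 664, 562, 366, 392 and 411 CPM in immature neutrophils, without overlap (log2 fold change 1.52 ± 0.23, edgeR adjusted p = 7.15e-09). Fpr1 rose as well (2.01 ± 0.27). Against the other mature neutrophils Cxcr2 had 0.28 (edgeR adjusted p = 0.406) and did not pass. Ltb4r1, the receptor for leukotriene B4, had 76.6 CPM in sick 3 and no count in the other sick mice, against 102 to 237 CPM in immature neutrophils (−2.64 ± 0.63, edgeR adjusted p = 0.00129). The other 7 of the 10 tested receptors did not pass.

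Granule genes moved both ways. Retnlg stood at 21130, 21001, 11629, 29643 and 17114 CPM in stefin A neutrophils of the 5 sick mice, against 4879, 4857, 3063, 5116 and 5542 CPM in immature neutrophils (log2 fold change 2.03 ± 0.22, edgeR adjusted p = 1.44e-16). With Retnlg, 3 more of the 24 tested secondary and tertiary granule genes rose: Mmp8 (1.22), Arg2, an arginase (2.48), and Adam8, a membrane protease (1.35). The falls were 9: Fcnb stood at 127, 115, 775, 38.0 and 472 CPM, against 3256, 2459, 2717, 2303 and 2608 CPM (−3.90 ± 0.31, edgeR adjusted p = 2.87e-33). Ltf stood at 2737, 2932, 3655, 1860 and 3029 CPM, against 15694, 13340, 9761, 13450 and 13589 CPM (−2.47 ± 0.23). Chil3, a chitinase-like protein, fell as well (−3.19), as did Cybb (−1.85), the catalytic subunit of the NADPH oxidase, whose partner Cyba also fell (−0.72) among 7 tested oxidase genes.

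Cell cycle genes were lower: 8 of 18 tested fell, none rose, and the median was −1.69. Top2a, the topoisomerase of dividing cells, stood at 318, 287, 554, 38.0 and 157 CPM in stefin A neutrophils, against 830, 693, 858.5, 507 and 545 CPM in immature neutrophils (log2 fold change −1.70 ± 0.33). Tubb5, a tubulin, had −1.84 and Mki67, the proliferation antigen, −0.98. These transcripts were lower rather than absent.

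Interferon-stimulated genes were also higher, with 8 of 23 tested genes up, 1 down and a median of 0.93. Ifitm1, an antiviral membrane protein, had 2.22, Slfn1 1.58, Rsad2, an antiviral enzyme, 1.40, Isg15, a ubiquitin-like modifier, 1.25, Ifi27l2a 1.21 and Slfn4 1.02. Ifi27 fell (−1.67). Over the 36 genes of the list, summed counts stood at 9851, 7175, 4145, 8978 and 5022 CPM of all counts in stefin A neutrophils of sick 1, 3, 4, 5 and 6, at 7041, 6318, 4729, 6335 and 3708 in the other mature neutrophils, and at 3965, 3710, 3204, 3729 and 2966 in the immature ones. In each mouse but sick 4, stefin A neutrophils had the highest of the 3 sums.

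Transcription factors also moved both ways. Cebpe, which drives secondary granule genes, stood at 0, 38.3, 332, 75.9 and 78.7 CPM in stefin A neutrophils, against 587, 482, 346, 414 and 316 CPM in immature neutrophils (log2 fold change −3.14 ± 0.49, edgeR adjusted p = 2.22e-08), and sick 4 overlapped. Cebpb, a factor of emergency granulopoiesis, rose (1.49), as did Hif1a, the oxygen-sensing factor (1.40), and Mxd1, an antagonist of Myc (0.81). The other 14 of the 18 tested factors did not pass. Early response genes had 5 rises among 19 tested, led by Btg1, an antiproliferative gene (1.71), with Atf3 (1.59), Btg2 (1.13), Fos (1.08) and Junb (0.94). Against the other mature neutrophils these 5 had 0.50, 0.15, 0.46, 0.20 and 0.08 in the same order, and none passed.

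Among the largest rises by size, Cd300ld, an activating receptor, had 3.23 on 23 counts, Jaml, a junctional adhesion molecule, 2.55, Cyp4f18, which breaks down leukotriene B4, 2.59, and Asprv1, an aspartic protease, 2.49. Jaml stood at 382, 326, 554, 531 and 275 CPM in stefin A neutrophils, against 83.2, 60.1, 53.7, 65.1 and 41.9 CPM in immature neutrophils, without overlap. The calcium-binding genes S100a6 (1.15) and S100a11 (0.94) rose, as did Srgn, the proteoglycan that packs granule contents (1.45). Of the cathepsins, whose cysteine protease members stefins block, 1 of 8 tested genes rose, Ctsd (1.20), an aspartic protease, and none fell. Cst3 and Cstb, the other cystatins tested, stood at −0.08 and 0.05 and did not pass. None of the 9 tested apoptosis and survival genes passed.

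Low counts limit the falls. Of the 131 lower genes, 16 had no count in stefin A neutrophils and 24 had 1 to 3. For those at 0, a floor of 3 counts over the stefin A neutrophils of the 4 mice (25.1 CPM) gives bounds: Ssrp1, a histone chaperone, was at least 4.67-fold lower, Dnajc3, a chaperone of the endoplasmic reticulum, at least 4.37-fold lower, and Spn, the sialoprotein CD43, at least 2.91-fold lower. These bounds leave out the counting error of the immature neutrophils. Epx, an eosinophil granule enzyme, was called higher (2.34) on 8 counts, and 65 counts of the 10 eosinophil markers were found in stefin A neutrophils of sick mice. Median depth was 674.8 ± 25.3 counts in stefin A neutrophils and 816.5 ± 46.0 in immature ones (SD, n = 5), and haemoglobin held 13.9 and 9.27% of counts; their part in the differences was not tested.

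**Figure D4:**
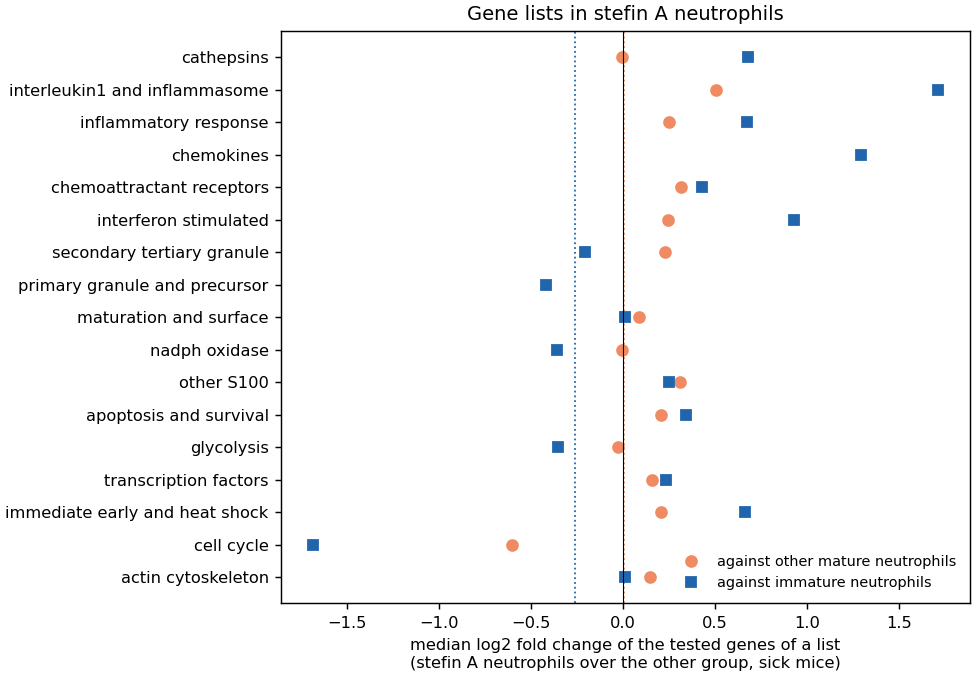
Median log2 fold change of the tested genes of each list with at least 3 tested genes, for stefin A neutrophils over the other mature neutrophils (circles) and over the immature neutrophils (squares) of sick mice; dotted lines mark the medians over all genes tested (0.00 and −0.26). Against the immature neutrophils the medians run between −1.69 for the cell cycle list and 1.71 for the interleukin 1 and inflammasome list, and against the other mature neutrophils between −0.60 and 0.50.

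The last comparison asked whether sick and healthy mice differed in the mature neutrophils that include these cells. Only healthy 1 had at least 20 stefin A neutrophils, so these were not tested alone, and the test took all mature neutrophils, 1264 from sick and 134 from healthy mice; of the healthy mice only 1 and 2 had the 20 cells needed and entered the fit. None of the 6 stefin A genes passed. BC100530 stood at 298, 1122, 673, 980 and 571 CPM of all counts in sick 1, 3, 4, 5 and 6, against 1658 and 660 CPM in healthy 1 and 2 (log2 fold change −0.49 ± 0.42, edgeR adjusted p = 0.732). Gm5483 stood at 310, 441, 182, 433 and 298 CPM, against 962 and 220 CPM (−0.77 ± 0.42, adjusted p = 0.538). Healthy 1 was above and healthy 2 within the range of the sick mice for both genes. The other fold changes were −0.34 for Stfa2, −0.48 for Stfa3, −0.17 for Stfa2l1 and −0.67 for BC117090, with adjusted p of 0.626 to 0.927. Without healthy 1, which leaves healthy 2 with 20 cells and 13628 counts, 5 fold changes turned positive, at 1.08 for BC100530, 1.55 for Gm5483, 0.30 for Stfa2, 0.83 for Stfa2l1 and 0.44 for BC117090. Stfa3 had no count in healthy 2, too shallow a sample to give it a direction. Acod1 did not pass either (0.90, adjusted p = 0.692).

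Across all genes, 3 of 2504 were higher in sick mice (0.12%) and none was lower (0%); at an unadjusted p of 0.05 there were 185 higher and 61 lower, and DESeq2 passed 1 higher and 0 lower. All 3 were interferon-stimulated. Isg15 stood at 218, 243, 467, 319 and 115 CPM in mature neutrophils of the sick mice and had no count in healthy 1 or 2 (edgeR adjusted p = 0.0166). Pooled over the sick mice it was 6.51-fold above a floor of 3 counts over both healthy mice. The lower 95% counting limit of its ratio was 5.26. Ifi27l2a stood at 1010, 454, 524, 469 and 583 CPM, against 118 and 0 CPM (log2 fold change 2.96 ± 0.60, edgeR adjusted p = 0.0182). Rsad2 stood at 264, 246, 262, 427 and 196 CPM, against 29.6 and 0 CPM on 2 counts, a ratio of 10.9 (95% counting interval 3.00 to 90.8; edgeR adjusted p = 0.0216). The groups did not overlap for these genes. Without healthy 1 or without healthy 2, 1 healthy mouse is left and is assumed to vary like the others. Dropping cells with transcripts of other lineages or at least 20% haemoglobin took healthy 2 under 20 cells and also left only healthy 1. None of these fits can therefore test the calls. The log2 fold changes were 2.57 for Ifi27l2a and 3.41 for Rsad2 without healthy 2, and 2.51 and 2.67 without those cells.

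The same 3 genes were counted in the stefin A neutrophils of sick mice, with 47 counts of Isg15, 50 of Rsad2 and 112 of Ifi27l2a, against 0, 0 and 1 in the 22560 counts of the 32 cells from healthy mice, where a count of 0 allows up to 133 CPM. Over the whole interferon list the stefin A neutrophils of sick mice stood at 4145 to 9851 CPM and those of healthy 1 at 3323 CPM, below each of the 5. Of 23 tested genes of the list in all mature neutrophils, 3 passed, and the median log2 fold change was 1.48 against 0.21 over all genes. Markers of other cells also had positive medians in this comparison, with none past the test: 2.22 over 3 tested B-lineage genes, 2.88 over 5 fibroblast, bone and muscle genes and 0.92 over 13 erythroid genes, 12 of them positive. Summed over all its genes, the B-lineage list stood at 734 to 2218 CPM in the mature neutrophils of the sick mice, against 355 and 514 CPM in healthy 1 and 2, and the fibroblast, bone and muscle list at 419 to 1460 CPM, against 563 and 440 CPM. The erythroid list stood at 129582 to 254586 CPM, against 85898 and 186308 CPM. None of the B-lineage, fibroblast, bone and muscle or erythroid markers was at 0 in the sick mice, and their part in the interferon result was not tested.

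**Figure D5:**
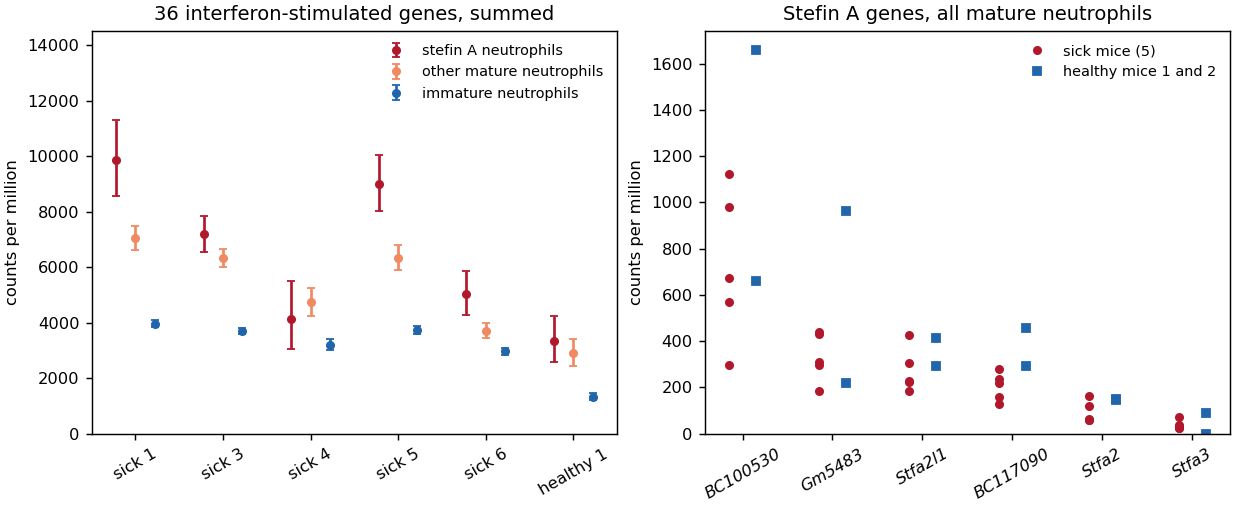
Left, summed level of the 36 interferon-stimulated genes (CPM of all counts) by mouse and neutrophil group, with 95% Poisson intervals for counting error; right, level of each stefin A gene (CPM) in all mature neutrophils, a point for each of 5 sick and 2 healthy mice. Stefin A neutrophils of sick mice lie between 4145 and 9851 CPM for the interferon genes, with healthy 1 below them at 3323 CPM, whereas for BC100530 healthy 1 lies above all sick mice at 1658 CPM and healthy 2 among them at 660 CPM.

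The genes whose counts ran most like the stefin A sum were sought over 389 mature neutrophils of sick mice with at least 800 counts, among 2157 genes counted in at least 5% of them. Spearman's rho, given as a description, was highest for Srgn and Retnlg (0.22 each), 2810474O19Rik (0.22), Slfn1 (0.21), S100a11, Trem1, Sh3glb1 and Cyp4f18 (0.20 each), Ppp4r3b (0.20) and S100a6 (0.19), and lowest for Mki67 (−0.20). The cells come from 5 libraries and differ in depth, and all these values are weak.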

How the data were processed

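Whole left knee joints of 9 mice were profiled by Seq-Well. The deposited table holds raw counts of 24296 genes in 16751 cells, all whole numbers; per the labels, repeated sequencing rounds were merged, and bcl2fastq, Picard, STAR and the Drop-seq core protocol were used. The labels name GRCh38 in the extract protocol and GRCm38 and mm9 in the processing notes, so which build gave the counts is not settled; genes are matched here by symbol. Each cell has at least 397 counts. Members and gene lists were chosen with earlier results of these data known.

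Counts were summed by mouse and cell group (at least 20 cells) and tested with edgeR 4.0.16 (R 4.3.3; filterByExpr, TMM, quasi-likelihood test, Benjamini-Hochberg over all tested genes, 0.05). The mouse is a block where both groups come from the same mice, which is where the pairing comes from. Shares and depth used exact permutation over mice. DESeq2 1.42.0, other cuts, filters and depths, and leaving out each mouse were alternatives. Doublets were not removed by a caller; an alternative drops cells with transcripts of other lineages. CPM intervals and floors cover counting error only. Named genes are the up to 12 largest called rises and falls at 50 CPM or more moving the same way in every mouse, up to 4 of each list by p, and the given markers; Clec4e, Mmp8, Adam8, Isg15, Rsad2, Ifi27, Btg2, Fos and Atf3 were added after their values were seen. The tests were tried on simulated data.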

Additional observations from a re-analysis of the deposited data

Results flagged for a closer look

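Dixon's test at 95% marked 9 of 89 sets of 4 to 10 mice in which 1 mouse lay far from the others, and chance alone marks about 1 in 20. Healthy 1 stood apart in the share of stefin A neutrophils among all cells (2.66%, with the other healthy mice at 0 to 0.228%). Sick 1 had the lowest median of genes per stefin A neutrophil (250), the highest Il1b level in these cells (2164 CPM) and the highest Ifi27l2a level in mature neutrophils (1010 CPM). Sick 4, with 12 stefin A neutrophils, had the highest Hbb-y (2769 CPM) and Cebpe (332 CPM) levels in them. Sick 5 had the highest Nlrp3 level in these cells (266 CPM), and sick 3 the highest Ltb4r1 level there (76.6 CPM) and the highest Stfa3 level in mature neutrophils (73.5 CPM). No cause was tested for these values.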

How the results depend on the processing

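Against the other mature neutrophils the calls were unstable. The 2 higher genes became 0 with DESeq2, with no filter on low counts, with a stefin A cut of 2 or of 5 counts, with a Camp and Ngp cut of 1.5%, without cells holding transcripts of other cell types and against cells with no stefin A count only, and 1 with a minimum of 10 cells. The 7 lower genes became 0 in those settings except no filter (35), a cut of 2 counts (1) and the minimum of 10 cells (5), and 15 both with depth-matched cells and with healthy mice added. The 1.5% cut left fewer than 20 stefin A neutrophils in sick 1 and in sick 6, so its fit held only sick 3 and 5. Its calls cannot be told apart from the loss of those mice. Leaving out a mouse gave 0 to 2 higher and 0 to 12 lower. With no filter, 6 fold changes turned negative: Retnlg −0.0227, Cxcr2 −0.145, Trem1 −0.0703, Cd14 −0.0765, S100a11 −0.0494 and Srgn −0.121.

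Against immature neutrophils the 149 higher genes became 32 with no filter, 224 and 38 with stefin A cuts of 2 and 5 counts, and 51 with a Camp and Ngp cut of 1.5%; all but 2 of the 32 were among the 149. The 131 lower genes became 53 with DESeq2, 263 with no filter, 40 with a cut of 5 counts, 59 with the 1.5% cut and 61 with depth-matched cells. The fit with the 1.5% cut again held only sick 3 and 5. Leaving out a mouse gave 70 to 141 higher and 65 to 88 lower. Mki67 turned to 0.0149 with an S100a8 and S100a9 cut of 8%.

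Pairing: with no replicate block, the comparison with other mature neutrophils passed 0 higher and 0 lower genes, and that with immature neutrophils 173 and 165; sick 4 was in neither fit, so it was not left out. No paired analysis was possible because, for sick against healthy mice, the fitted groups share only number 1, and the numbers name different animals. Sick against healthy was not tested in stefin A neutrophils alone, since only healthy 1 held at least 20 of them, so no other setting was run for it. For sick against healthy mature neutrophils, the 3 higher genes became 1 with DESeq2, 9 with no filter and 10 with an S100a8 and S100a9 cut of 8%. With no filter, 1 gene was lower. Leaving out a sick mouse gave 3 or 4 higher. A minimum of 50 cells, or dropping cells holding other transcripts, removed healthy 2 and left healthy 1 as the only healthy mouse. Leaving out a healthy mouse also left 1. Such fits cannot separate a setting from the loss of a mouse, so their calls are not counted. Stfa2l1 turned positive with no filter (0.14), a minimum of 10 cells (0.0093) and the 8% cut (0.20), as did Gm5483 with the 8% cut (0.0032), and the stefin A genes without healthy 1, where Stfa3 had no count in healthy 2 and so no direction. With a mouse left out the fold changes ran from −0.69 to 0.30 for Stfa2, −0.87 to 5.80 for Stfa3, −0.48 to 0.83 for Stfa2l1, −0.96 to 1.08 for BC100530, −0.91 to 0.44 for BC117090 and −1.28 to 1.55 for Gm5483, positive without healthy 1 only.

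For the shares, the difference (sick minus healthy, percentage points) in mature neutrophils was 3.38 with the 8% cut against −5.49, and −16.6 to 5.60 with a mouse left out. In all neutrophils it was −0.355 with a cut of 5 counts and −0.0804 with the 1.5% cut against 1.01, and −0.0143 to 2.56 with a mouse left out. The cause was not tested in any of these.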
